A study of Mus musculus with 19 samples.

Results

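The genes described here are 40 mouse genes of TGF-beta and BMP signalling: ligands, latency and matrix proteins, receptors, SMADs, inhibitors and the BMP target genes Id1, Id2 and Id3. They were listed by gene symbol, with earlier results of these data known. Each of the 40 had 1 probe set annotated with its symbol and no other, out of 41345 probe sets on the array. Of the 40, 38 passed a filter on low intensity and were tested among 14231 genes. The other two, the ligand gene Bmp2 and the BMP receptor gene Bmpr1b, lay at the dim end of the scale and were not tested.

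Expression was measured on 19 mammary tumours of MMTV-NIC mice, in which an activated ErbB2 and Cre recombinase are both expressed from the mammary tumour virus promoter, so that floxed genes are removed in mammary epithelium. All groups, the controls included, carry this transgene. The labelled double knockout group held 6 tumours with Itgb1 fl/fl and Itgb3 fl/fl alleles, the Itgb1 knockout group 4 tumours with Itgb1 fl/fl, the Itgb3 knockout group 4 tumours with Itgb3 fl/fl, and the control group 5 tumours labelled NIC WT. The RNA came from whole frozen tumours at end burden, with stroma and vessels in which this promoter is not expected to be active. The labels give no age and leave unstated whether the tumours came from different animals, and the p-values therefore reflect only how these tumours spread, which may be technical in part.

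TGF-beta ligands are secreted in a latent complex that latent TGF-beta binding proteins tether to the matrix, and some integrins release the ligand from it. TGF-beta, activin and BMP ligands then bring type II and type I receptor kinases together, which phosphorylate SMAD2 and SMAD3 or SMAD1 and SMAD5, and these enter the nucleus with SMAD4. Inhibitory SMADs, SMURF ubiquitin ligases and the corepressors SKI, SKIL and TGIF1 dampen the signal. In the mammary gland TGF-beta is known to restrain growth of normal epithelium and to favour invasion by established carcinoma cells.

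The targeted genes were read first. Itgb1 fell by 1.84 on the log2 scale in the labelled double knockouts (limma adjusted p = 0.000156) and by 1.46 in the Itgb1 knockouts (adjusted p = 0.0217) relative to control. Itgb3 differed by -1.12 in the Itgb3 knockouts (adjusted p = 0.723) and by 0.01 in the labelled double knockouts (adjusted p = 0.986). The Itgb3 signal of the labelled double knockouts was thus not lower than in control, and every direction given for that group carries this limit. Relative to the Itgb3 knockouts, the labelled double knockouts differed by -1.72 in Itgb1 (limma adjusted p = 0.00055) and by 1.13 in Itgb3 (adjusted p = 0.0223). Of 10 luminal epithelial markers, 9 were measured, with a mean log2 intensity of 9.19 to 9.68 over the tumours, and Prlr was too dim. The basal markers Krt5, Krt14 and Trp63 were also too dim.

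Over the gene set, the labelled double knockouts stood highest. Relative to control, 30 of the 38 tested genes (78.9%) had a log2 difference above 0, beside 55.9% of all genes tested. The median over the set was 0.24, and over all genes it was 0.03. No member passed an adjusted p of 0.05, where 0.386% of all genes did. At an unadjusted p under 0.05, 14 members were higher, beside 11.2% of all genes, and 0 were lower, beside 5.68%. In the Itgb1 knockouts 23 of 38 members were above 0, beside 55.9% of all genes, with a median of 0.05 against 0.02 over all genes. In the Itgb3 knockouts 12 of 38 were above 0, beside 47.6%, with medians of -0.05 and -0.01. All 3 comparisons share the 5 control tumours. Without control 1 the median of the labelled double knockouts was 0.15, and without Itgb1 knockout 1 that of the Itgb1 knockouts was -0.0033. Without control 3 that of the Itgb3 knockouts was -0.11.

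**Figure D1:**
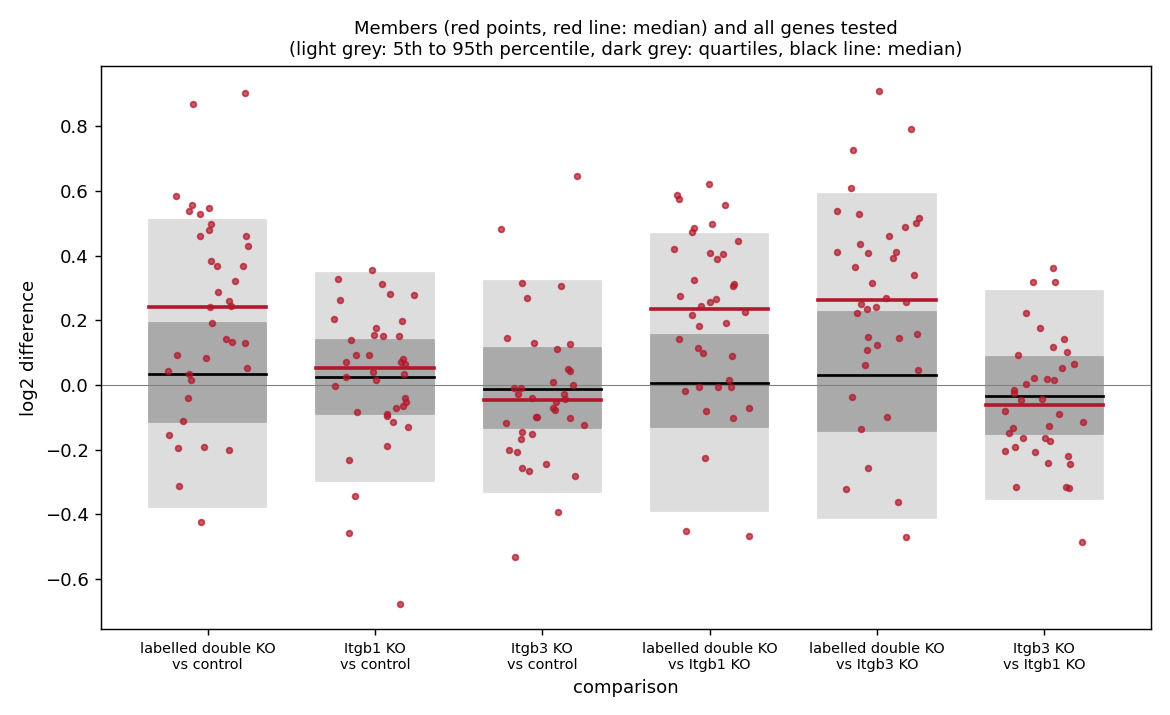
Log2 difference (vertical axis) of the 38 tested genes of the set in the 6 pairwise comparisons, as red points with a red line at their median, over the range of all 14231 genes tested (light grey 5th to 95th percentile, dark grey quartiles, black line median). The red line lies at 0.24, 0.24 and 0.26 in the comparisons that put the labelled double knockouts first, against black lines at 0.03, 0.01 and 0.03.

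The tumours of a group differed in this respect. The median over the 38 genes, relative to the control mean, was 0.32, 0.30, 0.20, 0.28, 0.24 and 0.05 in the labelled double knockouts. It was 0.26, 0.06, -0.08 and 0.05 in Itgb1 knockouts, and -0.10, -0.06, -0.06 and 0.05 in Itgb3 knockouts. In the controls it was -0.13, -0.08, -0.05, 0.17 and 0.13. Of the 6 labelled double knockouts, 5 were above every control, 1 Itgb1 knockout was also above them, and the remaining tumours overlapped the controls. The within-group SD of a single gene had a median of 0.26 and ran from 0.05 for Acvr2b in the Itgb3 knockouts to 1.04 for Ltbp2 in the Itgb1 knockouts.

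**Figure D2:**
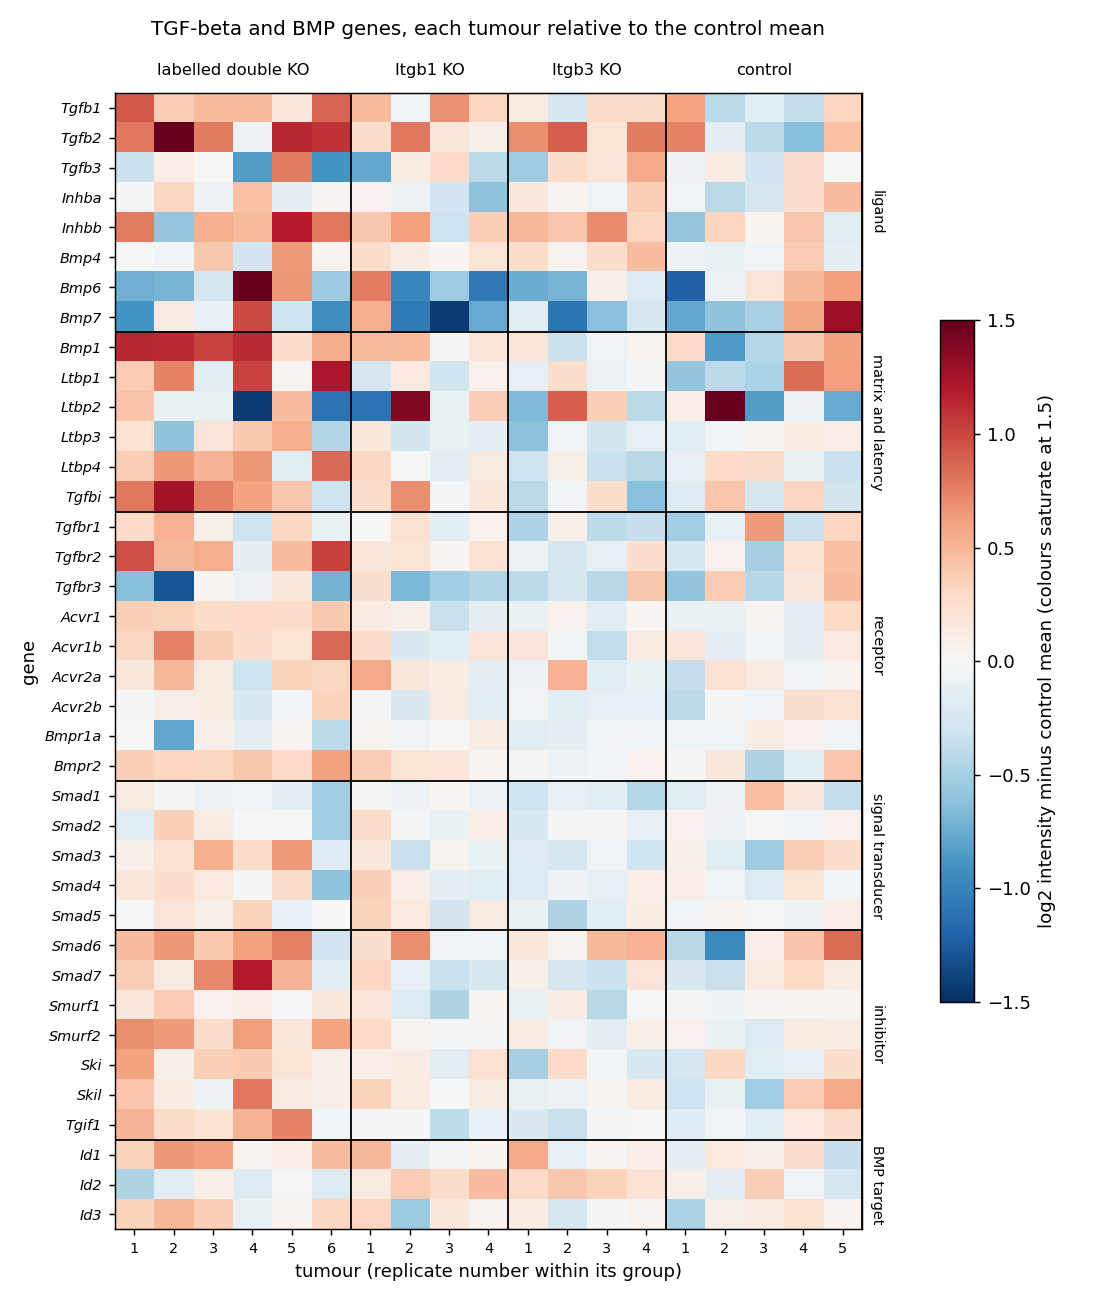
Log2 intensity minus the control mean (colour, cut at 1.5 in both directions) of the 38 tested genes, grouped by role, in each of the 19 tumours. Rows of Bmp1, Tgfbr2, Acvr1b and Smurf2 are red in most labelled double knockout columns, while Ltbp2, Bmp6 and Bmp7 vary from tumour to tumour within every group.

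Only the comparison of the labelled double knockouts with the Itgb3 knockouts had members past the threshold. These groups also differed in the targeted genes, by 1.13 in Itgb3 and by -1.72 in Itgb1. Smurf2 and Ltbp4 rose and Id2 fell, 3 of 38 members beside 2.87% of all genes (2.38% higher and 0.492% lower). The promoter sequences of these 3 genes are shown because they carry the calls of the whole set. Each is given 5′ to 3′ from 250 bases before to 50 bases after the annotated start, in lower case, from RefSeq on GRCm38.p6. Capitals mark the SMAD box CAGAC or its reverse complement GTCTG, and the GC box GGCGCC, which is its own reverse complement and to which SMADs of the BMP branch are known to bind. All 3 lie on the minus strand, and no marked match overlaps another.
Smurf2, chr11:106920666-106920965: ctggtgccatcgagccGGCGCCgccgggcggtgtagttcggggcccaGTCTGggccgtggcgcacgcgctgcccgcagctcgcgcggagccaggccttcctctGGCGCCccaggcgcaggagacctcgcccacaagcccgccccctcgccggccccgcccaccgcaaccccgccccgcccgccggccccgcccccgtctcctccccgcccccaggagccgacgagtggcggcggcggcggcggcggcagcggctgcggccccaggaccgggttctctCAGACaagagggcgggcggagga
Ltbp4, chr7:27333599-27333898: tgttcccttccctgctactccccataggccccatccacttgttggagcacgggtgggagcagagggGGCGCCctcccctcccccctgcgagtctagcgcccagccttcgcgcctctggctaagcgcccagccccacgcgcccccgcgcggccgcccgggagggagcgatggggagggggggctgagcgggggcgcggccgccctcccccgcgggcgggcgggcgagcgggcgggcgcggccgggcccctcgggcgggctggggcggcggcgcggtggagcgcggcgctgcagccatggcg
Id2, chr12:25096043-25096342: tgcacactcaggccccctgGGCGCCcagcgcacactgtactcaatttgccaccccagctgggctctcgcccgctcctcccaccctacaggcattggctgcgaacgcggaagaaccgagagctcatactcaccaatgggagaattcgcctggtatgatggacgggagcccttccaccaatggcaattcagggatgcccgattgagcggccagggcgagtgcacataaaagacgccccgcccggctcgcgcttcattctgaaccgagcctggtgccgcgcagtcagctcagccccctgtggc

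The Smurf2 promoter held 2 SMAD boxes and 2 GC boxes. The Ltbp4 and Id2 promoters held 1 GC box each and 0 SMAD boxes. Ltbp4 has 2 further starts in the table, 1 of them with the same GC box and the other, at chr7:27337563-27337862, with neither motif. The palindrome GTCTAGAC, searched on both strands, was in none of these windows. Promoters were given for 30 of the 40 members, 42 windows in all. Of these, 47.6% held a SMAD box, beside 49.6% of 32851 promoters of this length. A GC box was in 28.6% of them (12 windows of 10 genes), beside 11.9%. The promoters were not matched for GC content, and starts of 1 gene can share a box, as for Ltbp4. The palindrome was in only 1 of the members' 42 windows (2.38%) and in 70 of all promoters (0.213%). A match describes the letters of the window and is not a bound site.

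Smurf2 encodes a ubiquitin ligase that marks TGF-beta receptors and SMADs for degradation. Its log2 intensity ran from 9.68 to 10.21 with a median of 10.12 in the labelled double knockouts, and was 9.79, 9.55, 9.49 and 9.52 in the Itgb1 knockouts. It was 9.63, 9.46, 9.36 and 9.59 in the Itgb3 knockouts and 9.58, 9.41, 9.30, 9.64 and 9.62 in the controls. All 6 labelled double knockouts lay above every Itgb3 knockout and every control, and 4 of them above every Itgb1 knockout. The difference from the Itgb3 knockouts was 0.50 (SE 0.118, 1.41-fold, limma adjusted p = 0.0319). The difference from control was as large, 0.50 (SE 0.111), and did not pass (adjusted p = 0.0562). Smurf2 lies on chromosome 11, as Itgb3 does, with 61 annotated genes between them in GRCm38.p6, and in the Itgb3 knockouts it differed from control by -0.0013.

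Ltbp4 encodes a latent TGF-beta binding protein that also takes part in elastic fibre assembly. It ran from 6.01 to 7.02 with a median of 6.75 in the labelled double knockouts, and was 6.48, 6.15, 6.01 and 6.30 in the Itgb1 knockouts. It was 5.85, 6.25, 5.83 and 5.75 in the Itgb3 knockouts and 6.04, 6.45, 6.45, 6.05 and 5.84 in the controls. Of the 6 labelled double knockouts, 5 lay above every tumour of the Itgb3 knockout and control groups, and the lowest lay among them. The difference from the Itgb3 knockouts was 0.73 (SE 0.175, 1.65-fold, limma adjusted p = 0.0337), and from control 0.48 (SE 0.164, adjusted p = 0.157). The Itgb3 knockouts themselves differed from control by -0.25 (SE 0.182, adjusted p = 0.895).

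Id2, an inhibitor of basic helix-loop-helix transcription factors and a BMP target, moved the other way. It ran from 10.41 to 10.97 with a median of 10.68 in the labelled double knockouts. It was 11.001, 11.24, 11.14 and 11.33 in Itgb1 knockouts, 11.15, 11.27, 11.21 and 11.08 in Itgb3 knockouts and 10.94, 10.73, 11.24, 10.80 and 10.61 in the controls. All 6 labelled double knockouts lay below every tumour of both single knockout groups, and 5 of them within the range of the controls. Relative to the Itgb3 knockouts Id2 fell by 0.47 (SE 0.124, 1.38-fold, limma adjusted p = 0.0466). The same difference from the Itgb1 knockouts, -0.47 (SE 0.123), had an adjusted p of 0.144. Both single knockouts were above control, by 0.31 (SE 0.128, adjusted p = 0.982) and 0.32 (SE 0.128, adjusted p = 0.796), and the labelled double knockouts differed from it by -0.15 (SE 0.116, adjusted p = 0.525).

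Calls for these 3 genes depended on single tumours, on scaling and on which arrays and genes entered the fit. None of the 3 passed without labelled double knockout 1 or 2, or without Itgb3 knockout 1, 3 or 4, and without Itgb3 knockout 2 only Ltbp4 did. Ltbp4 also lost its call without labelled double knockout 3 or 4, and Id2 without labelled double knockout 4 or 6, Itgb1 knockout 2, 3 or 4, or control 1 or 4. Smurf2, Ltbp4 and Id2 each passed in 7 of 11 alternative settings, and in 13, 12 and 6 of 19 fits with 1 tumour left out. Centring the arrays on their medians moved the median over all genes to 0.14, against 0.03 as deposited, and the calls over all genes to 1173 higher and 53 lower, against 338 and 70. Under that scaling 9 members passed, all higher: Tgfbr2, Acvr1, Acvr1b, Bmpr2, Bmp1, Smurf2, Ltbp4, Tgfbi and Tgif1. With quantile normalization Id2 alone passed. With only both groups compared in the fit, Smurf2 and Ltbp4 did not pass, and Acvr1, Bmpr2 and Bmp1 passed beside Id2. Without the intensity filter Id2 lost its call.

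**Figure D3:**
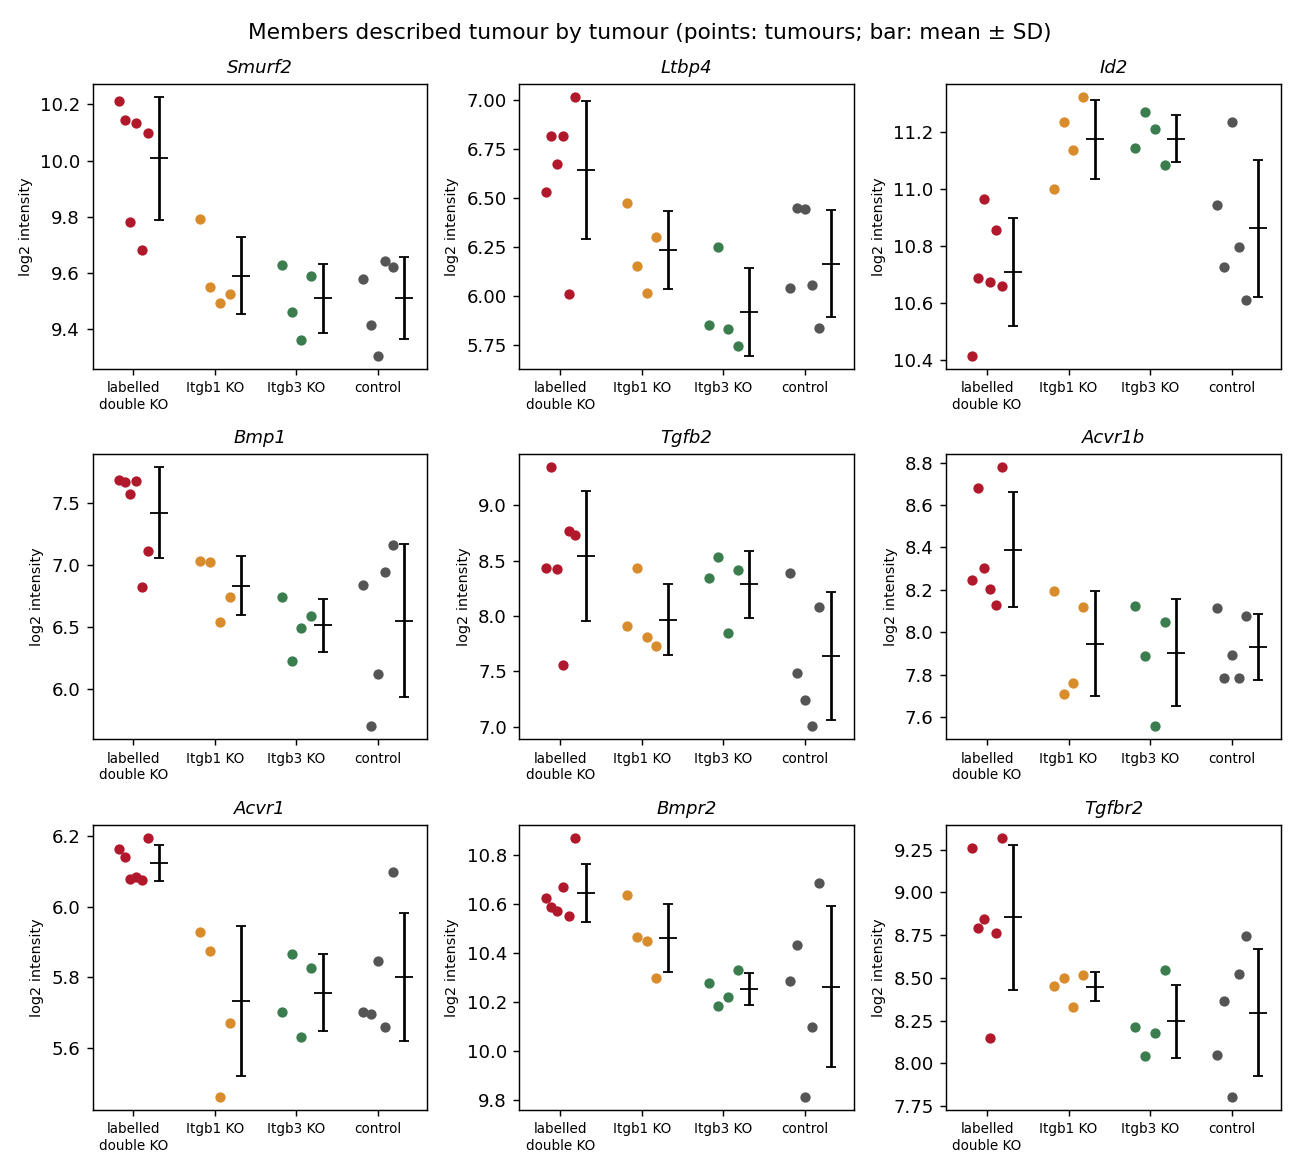
Log2 intensity (vertical axis, each panel on its own scale) of 9 genes of the set in each tumour, by group, with the group mean ± SD as a bar beside the points. Smurf2 and Acvr1b of the 6 labelled double knockouts lie above all 5 controls, and Id2 of the labelled double knockouts lies below both single knockout groups.

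The mean of 1 marker list separated the same groups, although 0 of its markers passed singly. The 8 pericyte and smooth muscle markers were all measured, and their mean, each marker centred over the 19 arrays, ran from 0.10 to 0.62 in the labelled double knockouts. It ran from -0.33 to 0.27 in Itgb1 knockouts, from -0.37 to -0.05 in Itgb3 knockouts and from -0.30 to 0.13 in the controls. All 6 labelled double knockouts were thus above every Itgb3 knockout, and 4 above every control. With this mean as a covariate, a setting added after the data were seen, the differences from the Itgb3 knockouts were 0.33 for Smurf2 (limma adjusted p = 0.425), 0.59 for Ltbp4 (adjusted p = 0.365) and -0.28 for Id2 (adjusted p = 0.521). None of the 14231 genes passed in that fit, the targeted gene Itgb1 included, where 408 did without the covariate. Since this mean itself separates both groups, the fit cannot tell its share from the group difference. With the fibroblast mean as covariate none of the 3 passed either. In RNA of whole tumours, fewer cells of a type and less RNA per cell cannot be told apart.

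The other stromal lists overlapped more. The mean of 12 fibroblast markers ran from -0.86 to 0.87 in the labelled double knockouts, from -0.15 to 0.54 in Itgb1 knockouts, from -1.43 to 0.52 in Itgb3 knockouts and from -0.45 to 0.48 in the controls. The mean of 8 endothelial markers ran from -0.25 to 0.52, -0.08 to 0.30, -0.26 to -0.09 and -0.36 to 0.35 in the same groups, and that of 7 macrophage markers from -0.37 to 0.55, -0.05 to 0.23, -0.56 to 0.06 and -0.29 to 0.36. The luminal mean stayed between -0.25 and 0.23 in all tumours. The adipocyte mean (6 of 8 markers, Adipoq and Lep too dim) ran from -0.49 to 0.51, 0.06 to 0.59, -0.47 to 0.38 and -0.52 to 0.34. The T and NK cell mean (5 of 8, with Cd3d, Ncr1 and Trac too dim) ran from -0.30 to 0.96, -0.47 to 0.29, -0.40 to 0.45 and -0.83 to 0.40. The mean of the 5 measured basal markers of 8 ran from -0.30 to 0.31, -0.20 to 0.12, -0.36 to 0.02 and -0.18 to 0.37. Between the labelled double and the Itgb3 knockouts 1 fibroblast and 2 macrophage markers passed. Within groups, no member followed the fibroblast mean (1.00% of all genes passed) or the luminal mean (0% passed). At an unadjusted p under 0.05, Bmp1, Id1 and Tgfbi followed the fibroblast mean, with slopes of 0.35, 0.23 and 0.34 per unit, beside 4.99% of all genes, and no member followed the luminal mean, beside 3.13%. What part the stromal share has in the differences of the members was not tested beyond these fits.

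**Figure D4:**
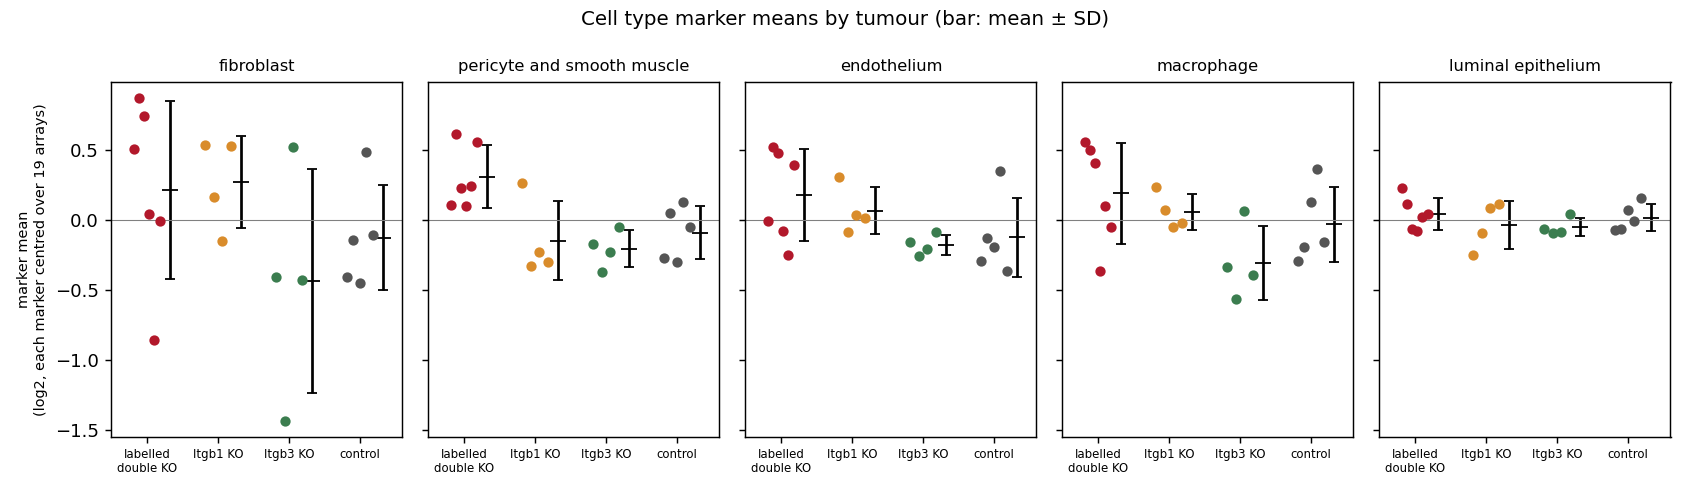
Mean of the measured markers of 5 cell types (vertical axis, log2, each marker centred over 19 arrays) in each tumour, with the group mean ± SD as a bar. The pericyte and smooth muscle mean of the labelled double knockouts lies between 0.10 and 0.62, above the Itgb3 knockouts at -0.37 to -0.05, while the luminal mean shows no such gap.

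By role, the ligands differed in direction. Of 8 tested, 6 were above 0 in the labelled double knockouts relative to control, with a median of 0.11 and none past the threshold. Tgfb2, a TGF-beta isoform, ran from 7.56 to 9.34 with a median of 8.58 in the labelled double knockouts and was 7.91, 8.43, 7.81 and 7.73 in the Itgb1 knockouts. It was 8.34, 8.54, 7.84 and 8.42 in the Itgb3 knockouts and 8.39, 7.49, 7.24, 7.005 and 8.08 in the controls. Of the labelled double knockouts 5 lay above every control, but 1 lay among them, and the single knockouts also reached the upper part of this range. Its difference from control was 0.90 in the labelled double knockouts (SE 0.274, limma adjusted p = 0.125), 0.33 in the Itgb1 knockouts (adjusted p = 0.982) and 0.64 in the Itgb3 knockouts (adjusted p = 0.806).

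Tgfb1, the TGF-beta isoform most studied in tumours and immune cells, ran from 9.21 to 9.97 with a median of 9.52 in the labelled double knockouts. It was 9.52, 8.98, 9.74 and 9.37 in Itgb1 knockouts, 9.18, 8.80, 9.32 and 9.33 in Itgb3 knockouts and 9.64, 8.64, 8.89, 8.69 and 9.36 in the controls. Only 2 of the labelled double knockouts lay above the highest control, and the groups overlapped. The differences from control were 0.55 in the labelled double knockouts (SE 0.192, limma adjusted p = 0.167), 0.36 in the Itgb1 knockouts (adjusted p = 0.982) and 0.11 in the Itgb3 knockouts (adjusted p = 0.964). Tgfb3, the third isoform, had differences of -0.20, -0.19 and 0.13 in the same order.

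Inhbb encodes the beta subunit of activin B. It ran from 5.91 to 7.68 with a median of 7.15 in the labelled double knockouts and was 6.89, 7.11, 6.18 and 6.85 in the Itgb1 knockouts. It was 6.98, 6.91, 7.21 and 6.82 in the Itgb3 knockouts and 5.91, 6.82, 6.53, 6.91 and 6.31 in the controls. Of the labelled double knockouts 5 lay above every control and 1 lay level with the lowest of them. The difference from control was 0.53 in the labelled double knockouts (SE 0.251, limma adjusted p = 0.293) and 0.48 in the Itgb3 knockouts (SE 0.278, adjusted p = 0.845). Inhba, the subunit of activin A, ran from 4.62 to 5.21 with a median of 4.77 in the labelled double knockouts and was 4.83, 4.68, 4.47 and 4.15 in the Itgb1 knockouts. It was 4.92, 4.80, 4.71 and 5.14 in the Itgb3 knockouts and 4.70, 4.36, 4.505, 5.02 and 5.23 in the controls, with 2 of the 19 tumours under the intensity filter. The groups overlapped, and its difference from control was 0.09 in the labelled double knockouts and -0.23 in the Itgb1 knockouts (adjusted p = 0.982).

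The BMP ligand genes varied widely within groups. Bmp7 ran from 5.29 to 7.20 with a median of 5.997 in the labelled double knockouts and was 6.75, 5.16, 4.79 and 5.46 in the Itgb1 knockouts. It was 6.07, 5.12, 5.60 and 5.96 in the Itgb3 knockouts and 5.45, 5.61, 5.73, 6.79 and 7.503 in the controls. Its difference of -0.68 in the Itgb1 knockouts had an SE of 0.456 (limma adjusted p = 0.982), and no group stood apart. Bmp6 was at or above the filter on 12 of 19 arrays and Bmp4 on 18. Bmp6 differed from control by 0.02 in the labelled double knockouts, -0.46 in Itgb1 knockouts and -0.39 in Itgb3 knockouts, and Bmp4 by 0.13, 0.15 and 0.27. Bmp2 was above the filter on 2 arrays, with means of 4.05 ± 0.15 in the labelled double knockouts, 4.05 ± 0.23 in Itgb1 knockouts, 4.13 ± 0.26 in Itgb3 knockouts and 3.995 ± 0.37 in the controls (SD, n = 6, 4, 4 and 5).

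The matrix and latency genes had the highest median of any role, 0.51 relative to control over 6 genes, 5 of them above 0 (4 with quantile normalization). Bmp1 is a metalloprotease that cleaves procollagen and latent TGF-beta binding protein 1, and is not a BMP ligand. It ran from 6.82 to 7.68 with a median of 7.62 in the labelled double knockouts, and was 7.03, 7.02, 6.54 and 6.74 in the Itgb1 knockouts. It was 6.74, 6.23, 6.49 and 6.59 in the Itgb3 knockouts and 6.83, 5.70, 6.12, 6.94 and 7.16 in the controls. All 6 labelled double knockouts lay above every Itgb3 knockout, and 4 above every control, where the controls spread over more than the single knockouts. The difference was 0.91 from the Itgb3 knockouts (SE 0.244, limma adjusted p = 0.0504) and 0.87 from control (SE 0.229, adjusted p = 0.0844). Without labelled double knockout 5, Bmp1 and Smurf2 passed against control, at 0.99 (adjusted p = 0.0488) and 0.56 (adjusted p = 0.0182), and without control 5 at 1.02 and 0.53 (both adjusted p = 0.0498).

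Tgfbi, a TGF-beta induced matrix protein that binds integrins, averaged 8.14 ± 0.52 in the labelled double knockouts, 7.83 ± 0.30 in Itgb1 knockouts, 7.35 ± 0.39 in Itgb3 knockouts and 7.56 ± 0.34 in the controls. It differed by 0.58 from control (limma adjusted p = 0.212) and by 0.79 from the Itgb3 knockouts (adjusted p = 0.0805). Ltbp1 and Ltbp3, which bind the latent complex, differed from control by 0.54 (SE 0.271) and 0.05 (SE 0.179) in the labelled double knockouts. Ltbp2, which belongs to the same family but does not bind latent TGF-beta, differed by -0.31 with an SE of 0.481.

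Of 9 tested receptors, 7 were above 0 in the labelled double knockouts, with a median of 0.19. Acvr1b encodes the type I receptor of activin. It ran from 8.13 to 8.78 with a median of 8.28 in the labelled double knockouts and was 8.20, 7.71, 7.76 and 8.12 in the Itgb1 knockouts. It was 8.12, 7.89, 7.56 and 8.05 in the Itgb3 knockouts and 8.11, 7.78, 7.89, 7.79 and 8.08 in the controls. Every labelled double knockout lay above every control and every Itgb3 knockout, though the gap was small. The differences were 0.46 from control (SE 0.142, limma adjusted p = 0.131) and 0.49 from the Itgb3 knockouts (SE 0.152, adjusted p = 0.0805). Over all genes, 1.19% lay wholly above the controls in this way and 0.597% wholly below. Among the 38 members these were Smurf2 and Acvr1b above, and 0 below.

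Acvr1, a type I receptor of BMPs, was nearly constant in the labelled double knockouts, from 6.08 to 6.19 with a median of 6.11. It was 5.93, 5.87, 5.46 and 5.67 in Itgb1 knockouts, 5.70, 5.87, 5.63 and 5.83 in Itgb3 knockouts and 5.70, 5.70, 5.85, 5.66 and 6.10 in the controls. The labelled double knockouts lay above every single knockout tumour, and 1 control reached their level. The differences were 0.32 from control (SE 0.0999, limma adjusted p = 0.131), 0.39 from the Itgb1 knockouts (adjusted p = 0.158) and 0.37 from the Itgb3 knockouts (adjusted p = 0.0653).

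Bmpr2, the type II receptor of BMPs, ran from 10.55 to 10.87 with a median of 10.61 in the labelled double knockouts and was 10.64, 10.46, 10.45 and 10.30 in the Itgb1 knockouts. It was 10.28, 10.18, 10.22 and 10.33 in the Itgb3 knockouts and 10.28, 10.43, 9.81, 10.10 and 10.68 in the controls. All 6 labelled double knockouts were above every Itgb3 knockout and only 1 above the highest control. The differences were 0.38 from control (SE 0.123, limma adjusted p = 0.139), 0.20 for the Itgb1 knockouts against control (adjusted p = 0.982) and 0.39 between the labelled double and Itgb3 knockouts (adjusted p = 0.0989).

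Tgfbr2, the type II receptor that binds TGF-beta, ran from 8.15 to 9.32 with a median of 8.82 in the labelled double knockouts. It was 8.45, 8.497, 8.33 and 8.52 in Itgb1 knockouts, 8.21, 8.04, 8.18 and 8.55 in Itgb3 knockouts and 8.05, 8.36, 7.80, 8.52 and 8.74 in the controls. Of the labelled double knockouts 5 were above every control, and replicate 4 was among the lowest tumours of all. The differences were 0.56 from control (SE 0.188, limma adjusted p = 0.153) and 0.61 from the Itgb3 knockouts (SE 0.201, adjusted p = 0.0956).

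Its partner Tgfbr1, the type I receptor, ran from 6.44 to 7.27 with a median of 6.93 in the labelled double knockouts and was 6.76, 6.98, 6.58 and 6.81 in the Itgb1 knockouts. It was 6.28, 6.83, 6.36 and 6.40 in the Itgb3 knockouts, against 6.23, 6.62, 7.38, 6.43 and 7.07 in the controls. The Itgb3 knockouts lay within the control range, with a difference of -0.28 (SE 0.209, limma adjusted p = 0.895), and the labelled double knockouts differed by 0.13. Tgfbr3 encodes betaglycan, a coreceptor that presents ligand, and had the lowest difference of any member in the labelled double knockouts, -0.42 (SE 0.265, adjusted p = 0.435). It ran from 6.18 to 7.63 with a median of 7.11 in the labelled double knockouts and was 7.72, 6.80, 6.97 and 7.03 in the Itgb1 knockouts. It was 7.06, 7.22, 7.06 and 7.88 in the Itgb3 knockouts and 6.88, 7.86, 7.04, 7.64 and 7.93 in the controls. The groups overlapped, and the Itgb1 knockouts differed from control by -0.34 (adjusted p = 0.982). Bmpr1a, a type I BMP receptor, differed from control by -0.20 in the labelled double knockouts, and Acvr2a and Acvr2b, type II activin receptors, by 0.19 and 0.04. Bmpr1b was under the filter on all arrays, at 2.82 ± 0.07, 2.52 ± 0.25, 2.89 ± 0.41 and 2.91 ± 0.16 in the labelled double, Itgb1, Itgb3 knockout and control groups (SD, n = 6, 4, 4 and 5).

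The signal transducers stayed closest to control in the labelled double knockouts. Smad1, Smad2, Smad3, Smad4 and Smad5 differed by -0.11, -0.04, 0.26, 0.03 and 0.08, with a median of 0.03 that became -0.02 with quantile normalization. In the Itgb3 knockouts all 5 were below control, with differences of -0.26 to -0.07 and none past the threshold (smallest limma adjusted p = 0.845). All 5 stayed below 0 there with median-centred arrays and with quantile normalization. Smad1, which carries BMP signals, ran from 5.27 to 5.94 with a median of 5.72 in the labelled double knockouts, and was 5.503, 5.67, 5.63 and 5.37 in the Itgb3 knockouts and 5.61, 5.71, 6.25, 5.97 and 5.45 in the controls. These groups overlapped, but every Itgb3 knockout was below every Itgb1 knockout, which were at 5.78, 5.72, 5.83 and 5.71 (difference -0.22, SE 0.156, adjusted p = 0.996).

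All 7 inhibitors of the set were above 0 in the labelled double knockouts relative to control, with differences of 0.14 to 0.50 and a median of 0.37. The same 7 of 7 held relative to the Itgb1 knockouts (median 0.26) and the Itgb3 knockouts (median 0.41). Over all genes 55.9%, 51.1% and 54.7% were above 0 relative to control, Itgb1 and Itgb3 knockouts. The 6 labelled double knockouts are shared by all of these comparisons, which are therefore not independent. Each of these comparisons, that with control included, also had 7 of 7 with median-centred arrays and with quantile normalization. Only Smurf2 passed, in the comparison with the Itgb3 knockouts. Tgif1, a homeobox corepressor of SMAD2 and SMAD3, averaged 7.49 ± 0.27 in the labelled double knockouts, 6.99 ± 0.18 in Itgb1 knockouts, 6.97 ± 0.15 in Itgb3 knockouts and 7.12 ± 0.20 in the controls. It differed by 0.37 from control (limma adjusted p = 0.176), 0.50 from the Itgb1 knockouts (adjusted p = 0.172) and 0.51 from the Itgb3 knockouts (adjusted p = 0.0532). Smad7 and Smad6, the inhibitory SMADs, differed from control by 0.46 (SE 0.199) and 0.43 (SE 0.259), Ski and Skil by 0.29 and 0.24, and Smurf1, a relative of Smurf2, by 0.14. In the Itgb3 knockouts only Smad6 of the 7 was above 0, or 3 of 7 with quantile normalization. Inhibitors outside the set, named here after their values were seen, went both ways in the labelled double knockouts. Bambi differed from control by 0.55, Tgif2 by -0.25, Fstl3 by -0.41 and Chrdl1 by -0.69, none past the threshold. Tgif2 was also below every Itgb3 knockout in all 6 labelled double knockouts (difference -0.32).

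The other BMP targets, Id1 and Id3, also encode inhibitors of basic helix-loop-helix factors. Id1 averaged 5.23 ± 0.25 in the labelled double knockouts and 4.86 ± 0.24 in the controls (difference 0.37, SE 0.156, limma adjusted p = 0.242). Id3, under the filter on 3 of 19 arrays, averaged 4.78 ± 0.22 and 4.54 ± 0.27 in the same groups (difference 0.24, adjusted p = 0.453). Both were thus above 0 where Id2 was below, and none of the 3 passed against control.

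**Figure D5:**
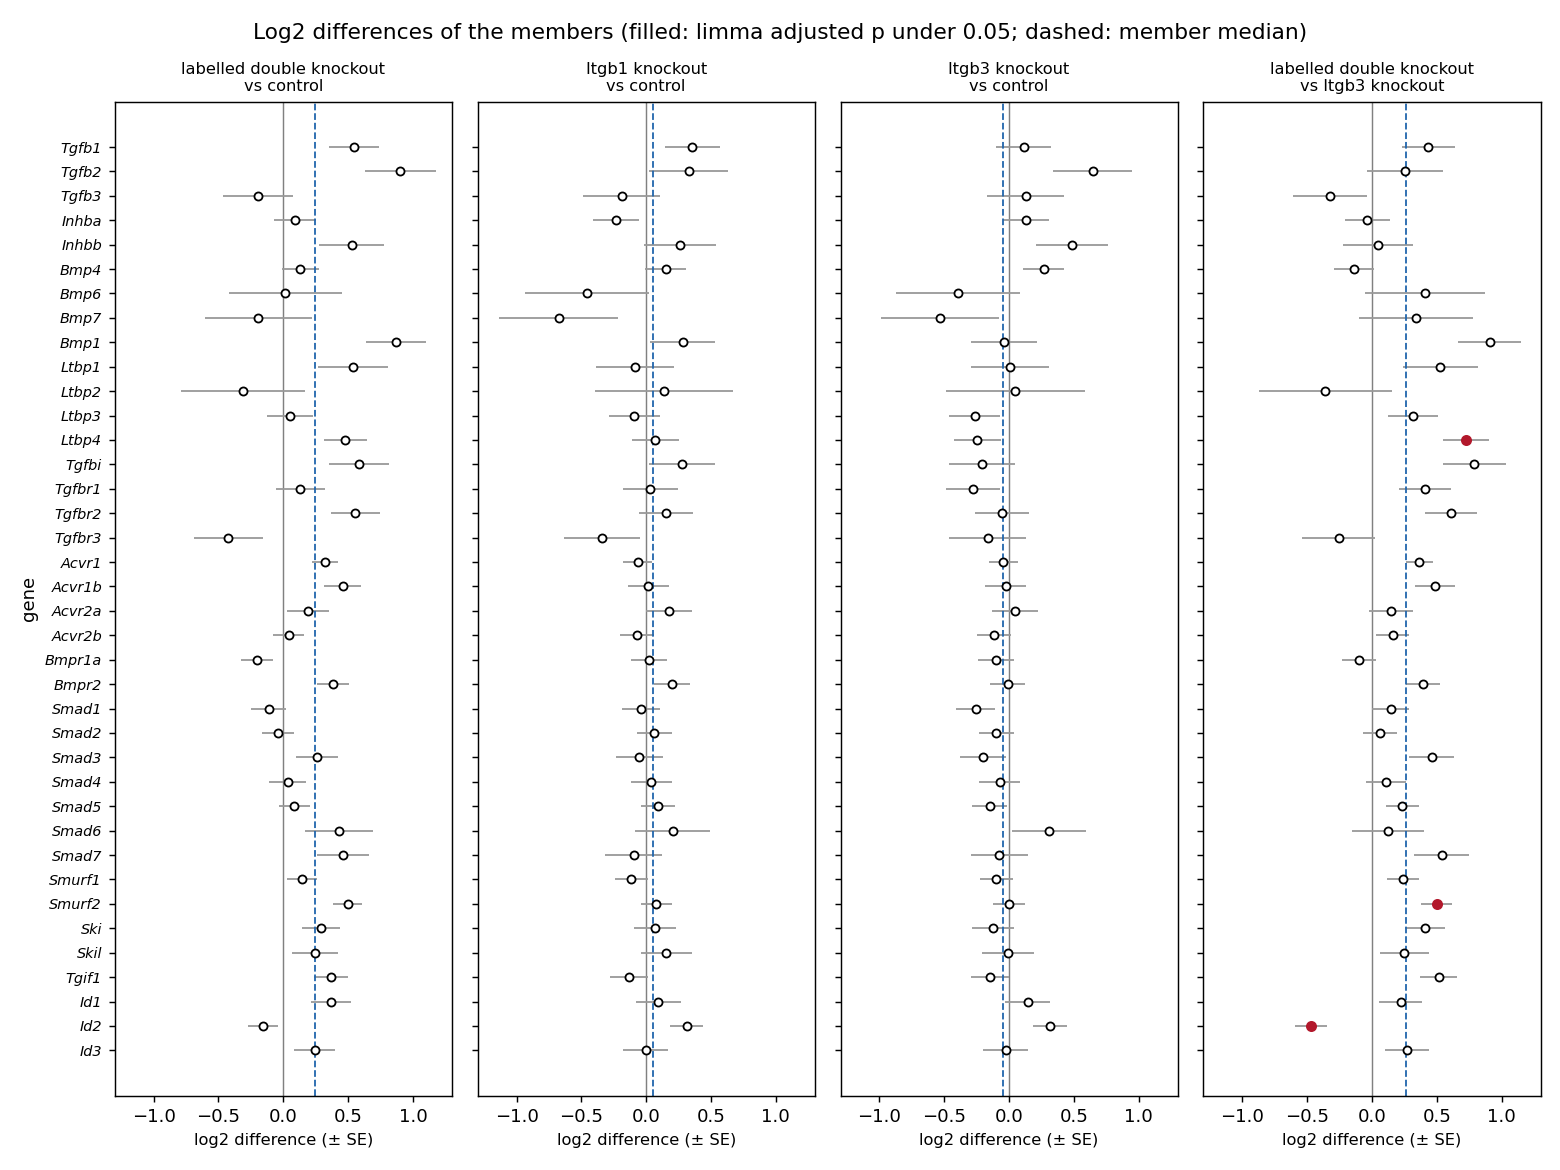
Log2 difference ± SE (horizontal axis) of each of the 38 tested genes in 4 comparisons, ordered by role, with filled points past an adjusted p of 0.05 and a dashed line at the median. Filled points appear only for Smurf2 (0.50), Ltbp4 (0.73) and Id2 (-0.47) between the labelled double and the Itgb3 knockouts.

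In the single knockouts Id2 had the smallest p of the set in each comparison with control. No member passed in Itgb1 knockouts, where 0.00703% of all genes did, and none in Itgb3 knockouts, where 0% did. At an unadjusted p under 0.05, Id2 was higher in the Itgb1 knockouts (3.30% of all genes) and Id2 and Tgfb2 were higher in the Itgb3 knockouts (3.34%). No member separated either single knockout wholly from control, where 0.731% and 0.450% of all genes lay above and below in Itgb1 knockouts and 1.17% each way in Itgb3 knockouts.

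Between knockout groups, no member passed when the labelled double knockouts were set against the Itgb1 knockouts (0.0211% of all genes). At an unadjusted p under 0.05, 8 were higher, beside 7.27% of all genes, and 1, Id2, was lower, beside 4.99%. Acvr1 lay wholly above (1.57% of all genes) and Id2 wholly below (1.12%). Relative to the Itgb3 knockouts, 13 were higher and 1 lower at that threshold, beside 14.0% and 7.14% of all genes. There Acvr1, Acvr1b, Bmpr2, Bmp1 and Smurf2 lay wholly above (5.88%) and Id2 wholly below (3.07%). Between the Itgb3 and the Itgb1 knockouts 0 members passed by limma (0% of all genes), and 0 had an unadjusted p under 0.05 (4.55%). Bmpr1a and Smad1 lay wholly below in the Itgb3 knockouts there, beside 2.47% of all genes, and 0 members lay wholly above, beside 1.40%.

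The interaction asks whether the labelled double knockouts differ from control by an amount other than the sum of both single knockout differences. Itgb3 itself had 1.01 (SE 0.352, limma adjusted p = 0.271), as its signal was lower in the Itgb3 knockouts but not in the labelled double knockouts. A value other than 0 therefore cannot show that the losses of both integrins do not add up. No member passed by limma, and 0% of all genes did. At an unadjusted p under 0.05, 5 members were above 0 and 1 below, beside 7.53% and 4.96% of all genes, and the median over members was 0.21, beside 0.01 over all genes. Id2 had the lowest value, -0.78 (SE 0.178, unadjusted p = 0.000324, adjusted p = 0.127), since both single knockouts were above control and the labelled double knockouts were not. The inhibitor Tgif1 had 0.64 (SE 0.204, adjusted p = 0.237).

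Of 76 further genes of the pathway, 47 were measured. In the labelled double knockouts 33 of these (70.2%) were above 0 relative to control, beside 55.9% of all genes, with medians of 0.13 and 0.03. None passed there, beside 0.386% of all genes. At an unadjusted p under 0.05, 13 were higher (Msx2, whose limit is given below, among them), beside 11.2% of all genes, and 2 lower, beside 5.68%. In the Itgb1 knockouts 35 of 47 (74.5%) were above 0, beside 55.9% of all genes, with medians of 0.11 and 0.02. More of these further genes were thus above 0 there than in the labelled double knockouts. In the Itgb3 knockouts it was 21 of 47 (44.7%), beside 47.6%, with medians of -0.02 and -0.01. Between the labelled double and the Itgb3 knockouts 3 of the 47 passed as higher, beside 2.38% of all genes, and 0 as lower, beside 0.492%. Lrrc32, which encodes GARP, a cell surface anchor of latent TGF-beta, averaged 6.69 ± 0.40 in the labelled double knockouts and 5.51 ± 0.29 in the Itgb3 knockouts (SD, n = 6 and 4), a difference of 1.18 (SE 0.233, 2.27-fold, limma adjusted p = 0.0163). In the Itgb1 knockouts it averaged 6.22 ± 0.49 (SD, n = 4). They differed from control by 0.49 (limma adjusted p = 0.982), with 3 of the 4 tumours above every control. Msx2, a homeobox BMP target, was 1 of the 3, but it reached the intensity filter in all 6 labelled double knockouts and was under it in 3 of 4 Itgb1 knockouts, 3 of 4 Itgb3 knockouts and 4 of 5 controls. It was thus kept through the group where it is high, and its difference is not given. Tgfb1i1, a focal adhesion adaptor induced by TGF-beta and named here after its values were seen, averaged 5.93 ± 0.30 in the labelled double knockouts and 5.17 ± 0.40 in the Itgb3 knockouts (difference 0.76, adjusted p = 0.0466).

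Relative to control, the 6 further genes with the smallest p were Msx2, whose value is not given for the same reason, Lrrc32 (0.96, limma adjusted p = 0.0578), the ligand gene Gdf3 (0.65, adjusted p = 0.117), the endothelial coreceptor gene Eng (0.48, adjusted p = 0.172), the TGF-beta target Pmepa1 (0.70, adjusted p = 0.181) and the receptor-associated Tgfbrap1 (0.49, adjusted p = 0.188). All 6 labelled double knockouts lay above every control for Lrrc32. Gdf3 was dim, with a mean of 5.17 in the labelled double knockouts and 4.52 in the controls, 2 of 5 of which were under the intensity filter. Eng is an endothelial gene, and the endothelial marker mean was above every control in 3 of the 6 labelled double knockouts.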

How the data were processed

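Total RNA of 19 frozen mammary tumours was hybridised to whole-transcript arrays. The authors deposited 1 table of normalized log2 intensities per probe set and array, made with Affymetrix Expression Console, version unstated, per the submitters' processing notes. How background was corrected and probes summarized, and the annotation build, is not given in the sources used here. No further scaling was applied to the deposited log2 values. Array depth is set by the design, so the number of arrays limits the precision. Array medians ran from 4.32 to 4.48, and the lowest correlation between 2 arrays was 0.963 and the highest 0.984, so none was a copy.

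Probe sets with 1 gene symbol were kept where 4 or more arrays reached 4.38, the median of the table, with the highest-mean probe set per gene. A mean per group was fitted to all 19 arrays in limma 3.58.1 (lmFit, eBayes; R 4.3.3), with 7 two-sided comparisons and Benjamini-Hochberg adjustment over 14231 genes. Scripts were tested on simulated data. Groups came from the genotype labels. Values by tumour (lowest, median and highest for the 6 labelled double knockouts) are given for members that passed, the 8 with the smallest p for the labelled double knockouts against control and the 3 per direction for each single knockout. The members, their roles, and the marker and pathway lists were chosen with earlier results of these data known. Alternatives covered filters, scaling, array weights, prior, groups fitted, marker covariates and each tumour left out. Values of different genes were not compared, since probe sets differ in response.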

Additional observations from a re-analysis of the deposited data

Results flagged for a closer look

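In 8 of 160 groups of 4 to 6 tumours, 1 tumour lay far from the rest of its group for a gene of the set, and chance at 1 in 20 gives 8. Labelled double knockout 6 was high for Bmpr2, at 10.87 beside 10.55 to 10.67 in the others of its group, and low for Smad4, at 8.87 beside 9.47 to 9.75, and for Smad6, at 4.59 beside 5.26 to 5.62. Labelled double knockout 3 was high for the dim genes Bmpr1b, at 2.95 beside 2.77 to 2.83, and Bmp2, at 4.34 beside 3.89 to 4.05. Itgb3 knockout 2 was high for Acvr2a, at 7.35 beside 6.67 to 6.74. Control 4 was high for Bmp4, at 4.95 beside 4.42 to 4.52, and control 1 was low for Id3, at 4.06 beside 4.60 to 4.76.

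For 3 genes the effect of the labelled double knockout differed from that of the Itgb3 knockout, by limma's direct comparison of the groups: Smurf2 by 0.50, Ltbp4 by 0.73 and Id2 by -0.47 on the log2 scale.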

How the results depend on the processing

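The count of members past the threshold between the labelled double and the Itgb3 knockouts was 3 as reported. It was 9 with arrays centred on their medians, 1 with quantile normalization, 13 with array weights and 5 with values under the filter raised to it. It was 0 with the fibroblast mean or, added after the data were seen, the pericyte and smooth muscle mean as a covariate. The calls over all genes moved too. In the same order, 1173 were higher and 53 lower, 178 and 53, 1161 and 407, 413 and 97, 46 and 9, and 0 and 0. With the fibroblast mean the differences were 0.44 for Smurf2 (limma adjusted p = 0.122), 0.68 for Ltbp4 (adjusted p = 0.118) and -0.42 for Id2 (adjusted p = 0.15). With 1 tumour left out the count of members ran from 0 to 6. It was 5 without labelled double knockout 6 (394 higher and 66 lower over all genes) and 6 without control 5 (358 and 90). Over all genes 408 passed there, 0 to 1568 over the settings and 56 to 460 with 1 tumour left out.

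Against control, the labelled double knockouts had 0 members past the threshold as reported, 1 (Smurf2) with median-centred arrays or with values raised to the filter, and 0 to 2 with 1 tumour left out. All genes past it numbered 55 (42 higher, 13 lower), 2 to 100 over the settings (87 higher and 13 lower with median-centred arrays) and 14 to 126 with 1 tumour left out. The members wholly apart from control numbered 2, 0 with quantile normalization and 2 to 4 with 1 tumour left out, and in the single knockouts 0 to 1 (Itgb1) and 0 to 2 (Itgb3). The cause was not tested.

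Over the 6 settings that could move it, the median over members was 0.21 to 0.29 in the labelled double, 0.03 to 0.06 in the Itgb1 and -0.11 to -0.05 in the Itgb3 knockouts. With 1 tumour left out it ran from 0.15 to 0.27, -0.0033 to 0.11 and -0.11 to -0.03 in these groups. No called result reversed: of 1077 single-gene values under the alternatives, 1015 kept direction and side of the threshold, 38 lost the call, 6 gained it, and 18 uncalled ones changed sign. No paired analysis was possible because the replicate numbers only name tumours within a group. Groups of 4 to 6 arrays limit the precision, and Bmp2, Bmpr1b and Bmp6 lie near the background.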
